A study of Caenorhabditis elegans with 4 samples.

Results

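The miR-51 family of *C. elegans* consists of the 6 miRNA genes *mir-51* to *mir-56*, listed in the files as cel-mir-51, cel-mir-52, cel-mir-53, cel-mir-54, cel-mir-55 and cel-mir-56. Its members were taken by name from the deposited count table, where all 6 of them were present among 148 miRNA names. They held 12 of the 219 rows of the table, because the arms of a hairpin, or further entries of the same name, were listed as separate rows without arm labels. In 11 of these rows counts were found.

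A miRNA guides the Argonaute complex to messenger RNAs by its seed, the bases near its 5′ end that pair with the target. miRNAs with one seed can act on the same targets, and the miR-51 family shares its seed with the miR-99 and miR-100 miRNAs of vertebrates, one of the oldest miRNA families of animals. In worms the members act redundantly. Animals that lack the whole family die as embryos, with a pharynx that fails to attach to the mouth, and the cadherin gene *cdh-3* is a known target in this process. Partial loss of the family also modifies the phenotypes of other miRNA mutants, among them those of *let-7* family members and *lsy-6*.

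Small RNA of whole synchronized L1-stage animals was sequenced from 2 libraries of the wild type N2 and 2 of the mutant *pry-1(mu38)*. PRY-1 is an Axin, a scaffold on which the WNT pathway controls β-catenin, and every cell of the mutant animals carries the *mu38* allele. Both strains were grown on NGM plates, synchronized by bleaching and received no other treatment. The paper states that *pry-1* mutants grow slower than controls, and for qRT-PCR it let them grow longer. It gives no growth times for the sequenced animals. The labels number the libraries within a strain and do not say whether the 2 came from separate cultures, so the tests below measure the spread between these libraries, which may be technical. In whole animals, fewer cells with a miRNA and less of it per cell cannot be told apart.

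The sequences are given to show what the family shares and which arm was listed for it. They come from the study's list of known miRNAs, run from 5′ to 3′ and have bases 2 to 8, the seed, in capitals. Of the 6 members only *mir-51* and *mir-54* had a sequence in this list, and *mir-57*, the nearest relative outside the family, is set beside them.
mir-51: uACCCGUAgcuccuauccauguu
mir-54: aGGAUAUGagacgacgagaaca
mir-57: uACCCUGUagaucgagcugugug

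miR-51 and miR-57 share their first 5 bases and differ within the seed. The sequence listed for *mir-54* does not hold ACCCGUA, the seed of the family. It has 22 bases, the length that the annotation gives for the 5′ arm of *mir-54*, whereas the annotated 3′ arm has 24. Among the 161 known miRNAs of the list, 1 had ACCCGUA at bases 2 to 8, and this was miR-51.

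The genes lie at 3 places of the genome (WBcel235, Ensembl annotation). On chromosome IV, *mir-51* (11026013 to 11026112) and *mir-53* (11027593 to 11027691) lie on the minus strand, 1480 bases apart and outside protein-coding genes. *mir-52* (14034008 to 14034107, plus strand) lies alone on the same chromosome, 3006316 bases away from *mir-53*, and an antisense noncoding RNA gene overlaps it. On chromosome X, *mir-56* (13144691 to 13144787), *mir-55* (13144827 to 13144924) and *mir-54* (13144996 to 13145094) lie within 404 bases of the minus strand, in intronic sequence of the protein-coding gene *F09A5.3*, which is on the other strand. There the gaps between neighbours are 39 and 71 bases. A miRNA named *mir-55b* is annotated opposite *mir-55*. Whether the counting used the strand of the reads is not given in the sources used here, so counts of *mir-52* and *mir-55* could include reads of those antisense genes.

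The family lies in a stretch of the count table where the columns of the libraries are out of step by up to 2 rows. The most abundant *mir-51* row shows it. As deposited it held 166304 and 14242 counts in N2 replicates 1 and 2, and 75630 and 56557 in *pry-1(mu38)* replicates 1 and 2. The listed read total of miR-51 was met exactly only with the value that stood 2 rows higher in N2 replicate 2, which is 109323. The row of *mir-54* was placed in the same way, with counts of 1855 and 2641 in N2, against 1204 and 1883 in *pry-1(mu38)*. No listed total and no neighbouring pair of matched rows fixed the rows of *mir-52*, *mir-53*, *mir-55* and *mir-56*.

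Those rows were placed between the matched rows in the order of the table, with the values that came closest to N2 replicate 1. A row of *mir-5546*, which lies between *mir-55* and *mir-56* in the table, served as a further fixed row. Its counts of 353 and 243 in N2, against 119 and 179 in *pry-1(mu38)*, met its listed total. It was not among the matched names, and its displacement was set by hand. The placement by order was chosen after the data were seen. It favours likeness to N2 replicate 1, so the differences given below for the members placed by it are not independent of it. Where matched rows outside the family were left out and placed again by the same rule, 50 of 53 values were recovered. That check left out 1 matched row at a time and scored this row alone. It did not check whole stretches like those of the family, with 3 or 4 rows between fixed rows. With the matched rows and *mir-5546* fixed, 80 orders were possible in N2 replicate 2. Over these the family took between 2.58% and 3.31% of its counts. It took between 3.49% and 3.72% of *pry-1(mu38)* replicate 1 and between 2.28% and 2.46% of replicate 2, with 20 possible orders in each. In each of these 3 libraries the placement used lay at or next to the upper end of its range. At the low ends the values 14242 and 33122 (N2 replicate 2), 7834 (*pry-1(mu38)* replicate 1) or 8657 (replicate 2) were left without a family row. The test of the summed family at both ends of these ranges is given with that sum.

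The libraries held 6651178 and 6491918 counts in N2, against 3284425 and 4651818 in *pry-1(mu38)*. Of these the miR-51 family took 4.21% (95% Clopper-Pearson interval 4.20 to 4.23) in N2 replicate 1 and 3.31% (3.30 to 3.33) in N2 replicate 2. In *pry-1(mu38)* replicate 1 it took 3.72% (3.70 to 3.75), and in replicate 2 it took 2.46% (2.45 to 2.48). These intervals cover counting error only, since reads amplified by PCR, without molecular identifiers, do not each stand for 1 molecule. One mutant library lay between the N2 libraries and the other below both. The mean share was 3.76% ± 0.637 (SD, n = 2) in N2 and 3.09% ± 0.892 (SD, n = 2) in *pry-1(mu38)*. An exact two-sided permutation test of the shares gave p = 0.667, where 2 libraries against 2 cannot go below 0.33.

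**Figure D1:**
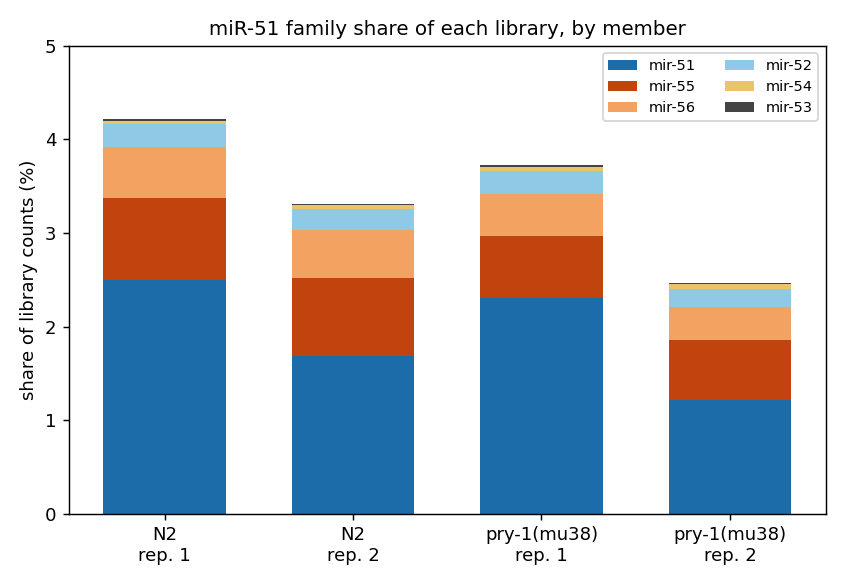
Stacked bars give the percent of each library's counts taken by the 6 members of the miR-51 family, for the 2 N2 and the 2 *pry-1(mu38)* libraries. The bars reach from 2.46% to 4.21%, and *mir-51* is the largest block in all 4 libraries.

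The family, taken as its 6 names, was set beside the other miRNAs grouped by the seed of their listed sequence. Among these 68 groups it stood 6th and 8th in N2 replicates 1 and 2, and 7th and 8th in those of *pry-1(mu38)*. Its nearest neighbours by mean share were miR-44 and miR-45 with 3.68% and miR-64 with 3.56%, against 3.43% for the miR-51 family. The other groups take their seed from the 1 arm listed per miRNA but sum all placed rows of a name. Their shares can therefore hold reads of the other arm, and they lack the names that could not be placed.

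miR-51 was the dominant member in every library. It held 59.3% and 50.8% of the family counts in N2 replicates 1 and 2, and 61.8% and 49.4% in *pry-1(mu38)*. The strains overlapped, with means of 55.09% ± 6.01 (SD, n = 2) and 55.6% ± 8.81 (SD, n = 2). miR-55 was second with 20.8% and 25.1% in N2, against 17.9% and 26.0% in *pry-1(mu38)*. miR-56 was the third with 12.9% and 15.4% in N2, and with 12.1% and 14.2% in *pry-1(mu38)*. Together these 3 members made up between 89.6% and 93.0% of the family.

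The other members were minor. miR-52 held between 5.87% and 8.05% of the family counts over the 4 libraries, *mir-54* between 0.742% and 1.82%, and miR-53 between 0.314% and 0.520%. The share of miR-53 in the family was higher in both mutant libraries (0.420% and 0.520%) than in both N2 libraries (0.341% and 0.314%), and the exact permutation p of 0.33 is the smallest this design allows. The family shares of the other members overlapped between the strains, as did the level of miR-53 itself. Among all pairs of rows, 41.0% had ratios that split by strain, so a split of this kind was common. Neighbouring genes could be near or far apart in abundance. *mir-51* and *mir-53* are neighbours on one strand, yet the most abundant *mir-51* row held between 94.9 and 174 times the counts of *mir-53*. In the group on chromosome X, the most abundant row of *mir-55* held between 1.48 and 1.83 times the counts of that of *mir-56*. Both were far above *mir-54*, whose most abundant row held between 0.0319 and 0.0633 times the counts of *mir-55*. The listed sequence of that *mir-54* row lacks the family seed, so unlike arms may be compared.

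Among 101 miRNA names with a placed row, *mir-51* stood between the 12th and the 14th place in the 4 libraries. *mir-55* stood at the 17th or 18th, *mir-56* at the 20th or 21st, and *mir-52* between the 24th and the 28th. *mir-54* and *mir-53* stood between the 45th and the 59th.

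The N2 and *pry-1(mu38)* libraries were compared with edgeR's quasi-likelihood test and Benjamini-Hochberg adjustment on all placed rows, to ask which miRNAs change when PRY-1 function is lost. Values are CPM, the counts scaled to a common library size after TMM normalization, and differences are log2 fold changes of *pry-1(mu38)* over N2. In the fit of rows placed by totals and neighbours, 0 of 140 rows were called (0% called) at an adjusted p under 0.05, while 11 (7.86%) had an unadjusted p under 0.05 and DESeq2 called 2. Rows placed by neighbours are not checked by totals, and the 2 rows of miR-35 are still out of step, with 24, 15, 7 and 24181 counts in the first and 75470, 59226, 18538 and 0 in the second over the 4 libraries. Without them edgeR called 2 rows, none of them of the family. miR-51 and *mir-54* are the members in this fit. With all family rows added, 1 of 149 rows was called (0.671% called), and it was no member of the family but a row of miR-2209c, named here after its value was seen.

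miR-51 itself had 27810.5 and 16289.9 CPM in N2 and 23077.7 and 11275.2 CPM in *pry-1(mu38)*. The first replicate of each strain was high, the second low, and the strains overlapped. The log2 fold change was −0.36 (SE 0.47, edgeR adjusted p = 0.827). Without *pry-1(mu38)* replicate 1 it was −0.97 with an edgeR adjusted p of 0.0346, a fit in which the lone mutant library is assumed to vary like those of N2. It was 0.13 without *pry-1(mu38)* replicate 2 and 0.0082 without N2 replicate 1. In the fit with all family rows, the value without *pry-1(mu38)* replicate 1 was −0.93 with an edgeR adjusted p of 0.356. The sign of this member therefore depended on single libraries, and of these 2 fits only that of rows placed by totals and neighbours gave a call.

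For the other members, the values come from the fit with all family rows added. Rows placed by order favour small differences, since closeness to N2 replicate 1 set them. miR-55 had 9585 and 8117 CPM in N2 and 6866 and 5800.4 CPM in *pry-1(mu38)*, so that both mutant libraries lay below both N2 libraries. Its log2 fold change was −0.48 (SE 0.28, edgeR adjusted p = 0.567), a level 1.40-fold higher in N2. miR-56 lies in the same group of genes. It had 5959 and 4985 CPM in N2 and 4637 and 3178 CPM in *pry-1(mu38)*, again without overlap, with a log2 fold change of −0.49 (SE 0.32, edgeR adjusted p = 0.614). Neither member passed the test. Over all 149 rows of this fit, 23.5% had both mutant libraries lower and 19.5% had both higher, so a separation of this kind was common among the miRNAs of these libraries.

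Of the minor members, miR-52 had 2637 and 2143 CPM in N2 and 2459 and 1687 CPM in *pry-1(mu38)*, and its strains overlapped (log2 fold change −0.21, SE 0.34, edgeR adjusted p = 0.935). miR-53 had 158 and 102 CPM in N2 and 161 and 116 CPM in *pry-1(mu38)*, with nearly the same pair of values in each strain (log2 fold change 0.097, SE 0.44, edgeR adjusted p = 0.967). The most abundant *mir-54* row, whose listed sequence lacks the family seed, had 310.2 and 394 CPM in N2 and 367 and 375 CPM in *pry-1(mu38)* in the fit of placed rows. Both mutant values lay inside the N2 range (log2 fold change 0.078, SE 0.33, edgeR adjusted p = 0.976).

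**Figure D2:**
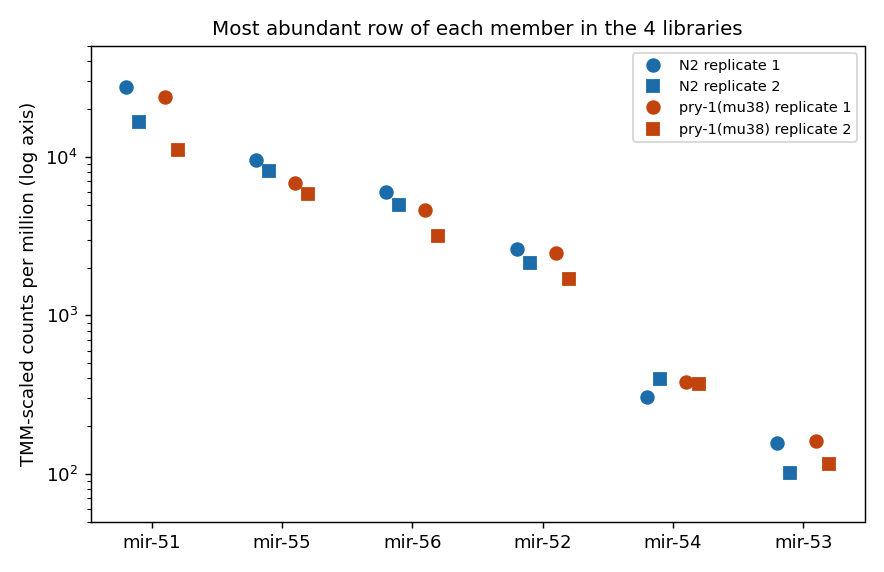
Points give the TMM-scaled CPM of the most abundant row of each member, on a log axis, in the 2 N2 (blue) and the 2 *pry-1(mu38)* libraries (red) of the fit with all family rows. The red points of *mir-55* and *mir-56* lie below the blue ones, and those of the other 4 members overlap with them.

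Of the 11 family rows tested, 0 were called, 5 had a log2 fold change below 0 and 6 one above 0. Their median was 0.084, beside 0.033 over all 149 rows, whose interquartile range ran from −0.34 to 0.36. Both mutant libraries lay below both N2 libraries in 2 of the 11 rows and above them in another 2, and in 7 the strains overlapped. The 2 higher rows were the less abundant rows of *mir-51* and *mir-54*. The less abundant *mir-51* row had 10 and 14 counts in the N2 libraries, against 13 and 18 in those of *pry-1(mu38)*, and its log2 fold change was 0.996 (SE 0.37, edgeR adjusted p = 0.520). It was the only one of the 11 family rows with an unadjusted edgeR p under 0.05, which 8.05% of the 149 rows had, and it amounted to between 0.00601% and 0.0318% of the *mir-51* counts.

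**Figure D3:**
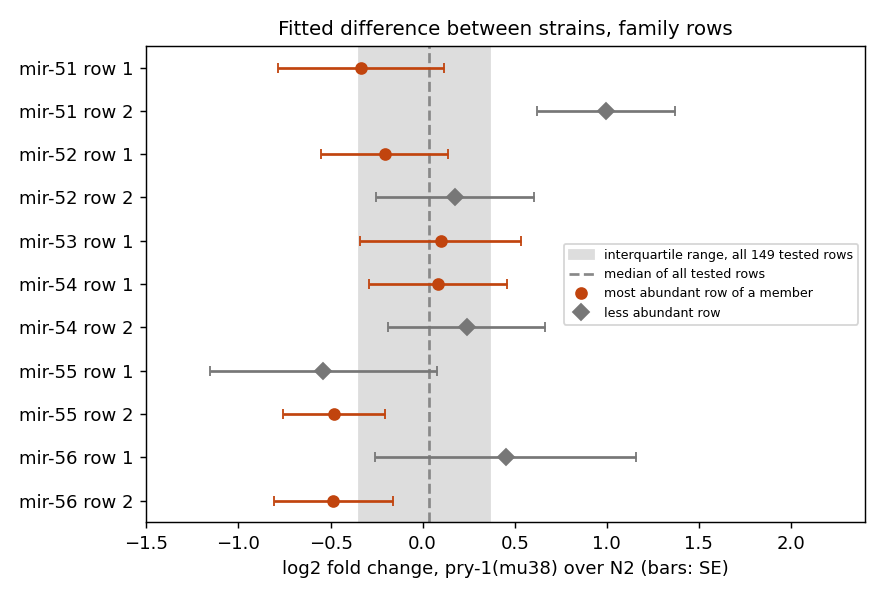
Points give, for the 11 family rows in the fit with all family rows, log2 fold changes (*pry-1(mu38)* over N2) with bars of 1 SE. The grey band is the interquartile range of all 149 tested rows (−0.34 to 0.36) and the dashed line their median (0.033). The rows of *mir-55* and the most abundant row of *mir-56* lie left of the band. The less abundant rows of *mir-51* and *mir-56* lie right of it.

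The summed family, entered as 1 row, had 47310.3 and 32172 CPM in N2 and 36481 and 23068 CPM in *pry-1(mu38)*. The higher mutant library lay above the lower N2 library. The log2 fold change of the sum was −0.42 (SE 0.35, edgeR adjusted p = 0.662), which corresponds to a 1.33-fold higher level in N2. Leaving out 1 library at a time gave values between −0.80 (without *pry-1(mu38)* replicate 1) and −0.14 (without *pry-1(mu38)* replicate 2). It was −0.30 (edgeR adjusted p = 0.867) with the lowest N2 and highest mutant sums that a placement allows, and −0.52 (edgeR adjusted p = 0.600) with the highest N2 and lowest mutant sums. Over all alternatives the edgeR or DESeq2 adjusted p of the sum lay between 0.149 and 0.965.

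For miR-51 the 2 mutant libraries differed by more than the strains did. In the fit with all family rows, its log2 ratio of replicate 2 over replicate 1 was −1.11 in *pry-1(mu38)*, where replicate 1 was 2.15-fold higher, and −0.73 in N2, where replicate 1 was 1.66-fold higher. For comparison, the interquartile range of the 147 rows with a count in every library went from −0.62 to 0.31 between the mutant libraries and from −0.41 to 0.40 between the N2 libraries. 16 of the 147 rows lay further down than miR-51 between the mutant libraries, and 14 did so between the N2 libraries. Many of these rows are far less abundant than miR-51. Of the 34 rows above 2 to the power 10 CPM, 3 (8.82%) lay further down between the mutant libraries. Between the N2 libraries 1 (2.94%) did.

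The other members differed less between the mutant libraries. The rows of miR-55, miR-56, miR-52 and miR-53 were placed by closeness to N2 replicate 1, which favours likeness. Setting them beside miR-51 is therefore no test. The log2 ratio of replicate 2 over replicate 1 was −0.24 for miR-55, −0.55 for miR-56, −0.54 for miR-52, −0.47 for miR-53 and −0.042 for *mir-54*, against a median of −0.25 over the 147 rows. In N2 the same ratio was −0.24 for miR-55, −0.26 for miR-56, −0.30 for miR-52, −0.63 for miR-53 and 0.38 for *mir-54*, against a median of 0.049. All but *mir-54* were lower in the second library of both strains.

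**Figure D4:**
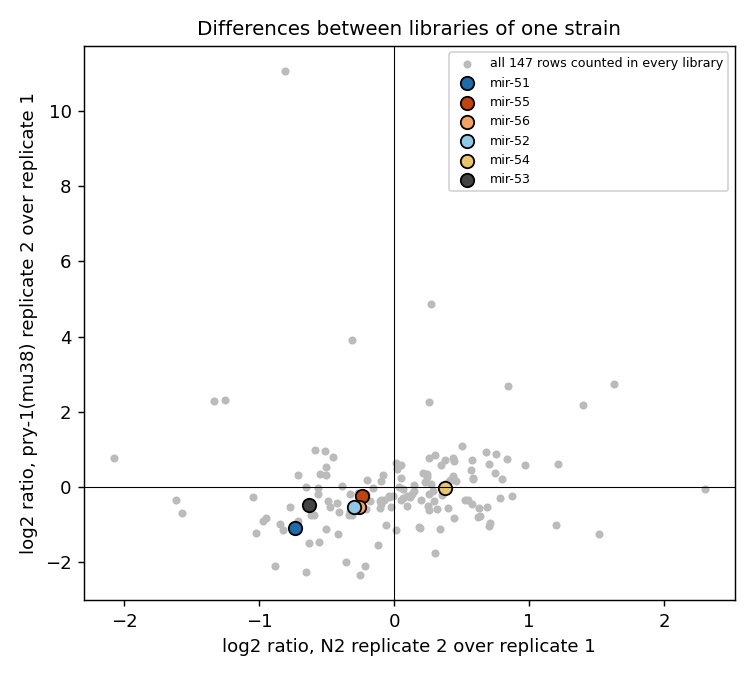
Each point is a row of the fit with all family rows, with the log2 ratio of N2 replicate 2 over replicate 1 on the x axis and that of the *pry-1(mu38)* libraries on the y axis. The most abundant rows of the 6 members are coloured, and *mir-51* (−0.73 and −1.11) lies lowest of them on both axes.

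Ratios between members do not depend on the scaling of the libraries, but they do depend on the placement of the rows. Those of miR-52, miR-53, miR-55 and miR-56 were placed by closeness to N2 replicate 1, which favours steady ratios among these members. Setting such ratios beside those of miR-51 is therefore no test. The ratio of miR-55 to miR-56 varied least of the 15 pairs, with 1.61 and 1.63 in N2, against 1.48 and 1.83 in *pry-1(mu38)*, a 1.23-fold range. The ratio of miR-52 to miR-56 had a range of nearly the same size, but its values split by strain, with 0.443 and 0.430 in N2, against 0.530 and 0.531 in *pry-1(mu38)*. Of the 15 pairs, which share members, 8 had ratios that did not overlap between the strains. Among all 147 rows with a count in every library, 41.0% of the 10731 pairs had such ratios. Whether the family pairs split more often than those was not tested. By contrast, the ratio of miR-51 to miR-55 was 2.86 and 2.03 in N2, against 3.46 and 1.90 in *pry-1(mu38)*, and so moved with the replicate rather than with the strain. These ratios are descriptions of 4 libraries, and an exact test of them cannot go below 0.33.

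The less abundant rows of a name held small shares. The second *mir-52* row made up 2.67% and 4.81% of the *mir-52* counts in N2, against 3.66% and 6.15% in *pry-1(mu38)*. The second *mir-54* row, with 226 and 246 counts in the N2 libraries, against 152 and 205 in *pry-1(mu38)*, made up between 8.52% and 11.2%. The corresponding shares did not exceed 0.218% for *mir-55* and 0.104% for *mir-56*. Which of these rows is the arm with the family seed is not stated in the table. Without the most abundant *mir-54* row, the mean family share was 3.73% in N2 and 3.06% in *pry-1(mu38)*.

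miR-57, which differs from the family in the seed, had 14236 and 12306 CPM in N2 and 18529.8 and 16089 CPM in *pry-1(mu38)*, both mutant libraries being higher (log2 fold change 0.38, SE 0.26, edgeR adjusted p = 0.614). It belongs to a list of 8 miRNAs that are linked to the family by sequence or genetics. Of these, 7 had a tested row and 0 were called. Taking the most abundant row of each name, 6 log2 fold changes lay above 0 and 1 below, beside a median of 0.033 over all 149 rows. Among the 6 were *let-7* (0.13, SE 0.72) and miR-240 (0.045, SE 0.59), whose other row had −0.27. The only one below 0 was *lsy-6*, which sets the left-right asymmetry of a pair of taste neurons. It had 88.9 and 86.5 CPM in N2 and 61.8 and 51.8 CPM in *pry-1(mu38)*.

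Of the *let-7* family, whose members time the larval stages, miR-48, miR-241 and miR-84 were highest in the second mutant library. *let-7* itself was highest in N2 replicate 1, with 8.89 and 2.11 CPM in N2, and 4.39 and 7.41 CPM in *pry-1(mu38)*. miR-48 had 89.6 and 37.6 CPM in N2, and 87.9 and 439 CPM in *pry-1(mu38)*. miR-241 had 2.80 and 2.26 CPM in N2, and 2.82 and 42.1 CPM in *pry-1(mu38)*. miR-84 was likewise highest in *pry-1(mu38)* replicate 2 with 66.5 CPM, against 14.8 CPM in replicate 1. The same library had the lowest levels of the summed family and of miR-51, miR-52, miR-55 and miR-56. The part of this library's difference in the comparison of strains was not tested apart from the values without it given above.

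The miRNAs outside the family whose levels followed the family sum most closely over the 4 libraries were miR-242, miR-252 and miR-233. Their distances from it in centred log2 CPM were 0.202, 0.226 and 0.248, beside a median of 0.928 over the 149 rows. The distance of miR-56 was 0.267, that of miR-51 0.279, that of miR-52 0.287, that of miR-55 0.434, that of miR-53 0.563 and that of *mir-54* 0.957. miR-51 supplies most of the sum it is compared with. miR-242 had 1214 and 967 CPM in N2 and 1115 and 714 CPM in *pry-1(mu38)*. The likeness is a description over 4 libraries that share their depth and scaling.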

How the data were processed

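Per the labels and methods, the authors aligned short reads to WBcel235, counted them per known miRNA and deposited the raw counts of each library, not normalized. The labels' processing notes name BWA and DESeq. Tool versions, and how a read matching more than 1 miRNA was counted, are not given in the sources used here. Columns were matched to libraries by strain letter and replicate number, and 0 columns had no sample.

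Because columns were displaced, rows were placed by the read totals that the study lists. Of 126 listed names 87 were matched, 55 rows lay between matched rows of equal displacement, and 1 duplicate row was left out. Family rows without such support were placed by order, as an added alternative. The members and lists were chosen with earlier results of these data known. Named miRNAs were the members, miR-57, a list of genetic partners and the 3 nearest patterns. Of the partners, miR-240 and *let-7* had low counts, and miR-786 had no tested row.

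Counts were fitted with edgeR 4.0.16 in R 4.3.3 (TMM scaling, library sizes from all rows, filterByExpr with a minimum of 10 counts, glmQLFit, two-sided glmQLFTest, Benjamini-Hochberg adjustment). DESeq2 1.42.0 was an alternative. Tested on simulated counts of 149 rows with 4-fold changes in 20 draws, the fit recovered 35.1% of changed rows with the observed spread and 98.6% with a smaller one. Exact permutation tests used scipy 1.17.1. Gene positions came from Ensembl release 115. Other scalings, filters, the replicate block, libraries left out and the rows as deposited were alternatives.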

Additional observations from a re-analysis of the deposited data

How the results depend on the processing

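The family sum stayed lower in *pry-1(mu38)* under every alternative and was called under none of them. Its log2 fold change was −0.13 with upper-quartile scaling, which moved the median of all rows up by 0.26, and −0.28 with library totals alone, which moved it by 0.13. The count of called miRNAs was 1 with library totals alone, with upper-quartile scaling, with matched rows only and with all family rows added, and 2 with DESeq2, with the robust option of edgeR or without the miR-35 rows. It ran from 0 to 13 with 1 library left out, 13 being the count without *pry-1(mu38)* replicate 1. Single members turned sign with the rows as deposited, to 0.18 for miR-51, −7.37 for *mir-54*, 0.58 for miR-52 and −1.14 for miR-53, since such rows mix miRNAs. miR-52 was 0.0051 with upper-quartile scaling, and *mir-54* was −0.0023 without the most abundant miRNA. The share of miR-51 in the N2 family counts was 33.7% with the rows as deposited. With 1 library left out, log2 fold changes ran from −0.97 to 0.13 for miR-51, −0.43 to 0.043 for miR-52, −0.18 to 0.45 for miR-53, −0.11 to 0.15 for *mir-54*, −0.60 to −0.34 for miR-55 and −0.71 to −0.24 for miR-56. Family shares then ran from 3.31% to 4.21% in N2 and from 2.46% to 3.72% in *pry-1(mu38)*, and those of miR-51 in the family from 50.8% to 59.3% and from 49.4% to 61.8%.

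Replicate numbers are shared by the strains, but nothing describes them as pairs, and same-numbered libraries correlated at 0.115 in their deviations. With the replicate block, the log2 fold change of the family sum was −0.43 (edgeR adjusted p = 0.328), that of miR-51 was −0.40 (edgeR adjusted p = 0.350), and 0 miRNAs were called.

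With 2 libraries per strain, the fit recovered 35.1% of simulated 4-fold changes over rows of all levels. Recovery at the levels of miR-55 and miR-56, whose differences were smaller than 4-fold, was not taken apart. A missed call is no sign that the strains are alike.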

Other observations

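Between the matched rows of *mir-51* and *mir-54*, 3 values were left without a row after the placement by order: 13 in N2 replicate 2, 0 in *pry-1(mu38)* replicate 1 and 9 in *pry-1(mu38)* replicate 2. The third row named *mir-55* held 0 and 0 counts in N2 and, as deposited, 21876 and 29759 in *pry-1(mu38)*, values that the placement gives to the most abundant *mir-55* row.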
